A study of Mus musculus with 12 samples.

Results

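Resting cardiac fibroblast markers are genes read highly by the fibroblasts of an unstressed heart. The 10 examined here were Pi16, Scara5, Pdgfra, Tcf21, Dpt, Gsn, Cd248, Pcolce2, Smoc2 and Dpep1, taken by gene symbol from the 24775 genes of the deposited table. Each of the 10 was listed, and all 10 passed the filter on low values. RNA of mouse heart tissue was sequenced in 12 libraries, 3 in each of 4 groups.

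All mice were C57BL/6 and all received an AAV9 virus 3 weeks before surgery, and the hearts were taken 4 weeks after surgery. Adeno-associated virus serotype 9 (AAV9) is a gene delivery vector that reaches heart muscle efficiently. PRODH TAC hearts had AAV9-PRODH (genotype label PRODH Overexpression) and transverse aortic constriction (TAC), a narrowing of the aorta that loads the left ventricle with pressure. Vector TAC hearts had AAV9-Vector (genotype label WT) and TAC. PRODH sham hearts had AAV9-PRODH and a sham operation, and vector sham hearts had AAV9-Vector and a sham operation. Proline dehydrogenase (PRODH) is the mitochondrial enzyme that starts proline breakdown. The series text calls the overexpression cardiac-specific. Promoter of the virus, age and sex were not given in the sources used here. Nothing in the labels says how many mice made a library, so the p-values measure only the spread between these samples.

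Fibroblasts of the adult heart hold and renew the collagen network between the myocytes. In the resting state they are recognised by the receptor Pdgfra and the transcription factor Tcf21, and they also read genes for secreted matrix regulators. Under pressure load part of them become activated, read genes such as Postn and Col1a1 and lay down scar matrix. The study asked how TAC changed the heart in vector mice and how PRODH changed the heart after TAC. Since the libraries come from heart tissue with all its cell types, fewer fibroblasts and less RNA per fibroblast cannot be told apart in any value below.

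Promoter sequences in RefSeq (GRCm38.p6) were found for 7 of the 10 genes. Those of Pi16 and Pcolce2 are shown because both genes rose after TAC in vector hearts and fell with PRODH in TAC hearts, as described below. Each line gives the 250 bases before the start site, 5′ to 3′ on the strand of the gene. Capitals mark matches, on either strand, to the SMAD motif CAGAC in Pi16, and to the E-box CANNTG and then the GC box GGGCGG in Pcolce2.
Pi16, chr17:29318632-29318881, plus strand: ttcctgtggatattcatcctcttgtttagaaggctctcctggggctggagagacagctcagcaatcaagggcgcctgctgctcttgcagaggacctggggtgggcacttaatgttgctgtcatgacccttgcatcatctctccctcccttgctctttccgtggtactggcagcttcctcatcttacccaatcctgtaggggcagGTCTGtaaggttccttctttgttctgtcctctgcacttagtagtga
Pcolce2, chr9:95637378-95637627, plus strand: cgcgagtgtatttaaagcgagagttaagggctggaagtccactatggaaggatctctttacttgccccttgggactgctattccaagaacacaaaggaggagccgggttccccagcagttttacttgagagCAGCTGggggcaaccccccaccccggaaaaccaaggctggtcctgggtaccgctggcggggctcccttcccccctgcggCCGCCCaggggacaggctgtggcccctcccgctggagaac
Over the whole promoter windows of 300 bases, which run past the start site, 6 of the 7 genes held an E-box, against 72.3% of the 32851 promoters in that table. The SMAD motif was in 4 of the 7, against 49.6% of all promoters, and the GC box was in 2 of the 7, against 35.7%. Dpep1 held the TEAD motif GGAATG (14.7% of all promoters) and Dpt the TATA motif TATAAA (13.6%). None of the 7 held the AP-1 motif TGANTCA (7.8%) or a CArG box (1.6%). Gsn has 3 promoters in that table and the first one listed was counted. A match is a description of these letters and not a binding site.

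The libraries held 10132059 to 15228036 reads over the listed genes. A level is given below in normalised reads, which are the reads of a gene divided by a size factor of its library, as deposited. Prodh itself, in replicates 1, 2 and 3, had 964, 1319.9 and 1021 normalised reads in PRODH TAC hearts, 245, 172 and 159.6 in vector TAC hearts, 965, 497 and 1072 in PRODH sham hearts and 334, 292 and 379 in vector sham hearts, as the labels have it. Heart muscle genes were abundant in every library: 10 ventricular myocyte markers summed to 512973 to 862666 normalised reads. Vector TAC replicate 1 and PRODH sham replicate 2 stood apart by the summed level of a list of mesothelial and epicardial markers. These are genes of the cell layers that cover the heart. The 12 markers of that list, all listed, summed to 284.9 to 400.7 normalised reads in PRODH TAC hearts, 894, 508 and 488 in vector TAC replicates 1, 2 and 3, 191, 776 and 222 in PRODH sham replicates 1, 2 and 3, and 206 to 333 in vector sham hearts. Upk3b, a defining gene of mesothelium, had 141 normalised reads in vector TAC replicate 1 and 164.5 in PRODH sham replicate 2, at most 23.1 in any other library, and 0 in all vector sham hearts. The defining gene Msln was at 0 in 5 of the 12 libraries. Wt1, an epicardial gene of the list, did not follow the sum. It had 66.9, 147.2 and 240.4 normalised reads in vector TAC replicates 1, 2 and 3. In PRODH sham replicates 1, 2 and 3 it had 91.0, 100.4 and 81.0. Macrophage markers (10 genes) summed to 24804 in vector TAC replicate 1, against 11768 and 11585 in the other vector TAC hearts. Over all the other cell type lists, called genes after TAC in vector mice were 3 of 11 mesothelial, 1 of 10 macrophage and 4 of 7 valve and chondrocyte markers, all higher, 2 of 10 ventricular myocyte markers, both lower, and 0 of the endothelial, pericyte and smooth muscle, adipocyte and Schwann cell markers, against 7.77% of all genes. With PRODH in TAC hearts they were 1 mesothelial and 3 valve and chondrocyte markers, all lower, 2 ventricular myocyte markers, both higher, and 0 of the remaining lists, against 3.92% of all genes. The part of these cells in the results was not tested, and results that rest on vector TAC replicate 1 are given with and without it.

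Levels of different genes were compared per kilobase of exon, with exon lengths from GENCODE M21. In vector sham hearts Gsn, which encodes gelsolin, an actin-severing protein that is also secreted, was far ahead with 6908.7 ± 620.8 normalised reads per kilobase (SD, n = 3), rank 74 of 24735 genes with a length. Dpt, which encodes the collagen-binding matrix protein dermatopontin, followed with 1161 ± 155. Dpep1, a membrane dipeptidase, had 444 ± 41.6 normalised reads per kilobase and Smoc2, a secreted calcium-binding matrix protein, 241 ± 49.0. The ranges of Smoc2 and of Pi16, a secreted peptidase inhibitor, overlapped, with Pi16 at 161 ± 29.4. Below them came the ferritin receptor Scara5 at 116 ± 22.2, Pcolce2, an enhancer of procollagen C-proteinase, at 81.8 ± 11.3, the membrane glycoprotein Cd248 (endosialin) at 79.1 ± 20.8, Pdgfra at 69.2 ± 8.44 and Tcf21 at 63.0 ± 18.7 normalised reads per kilobase. From Scara5 to Tcf21 each gene overlapped its neighbour in this order over the 3 vector sham hearts. The fewest reads of any marker in any library were the 84 of Cd248.

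**Figure D1:**
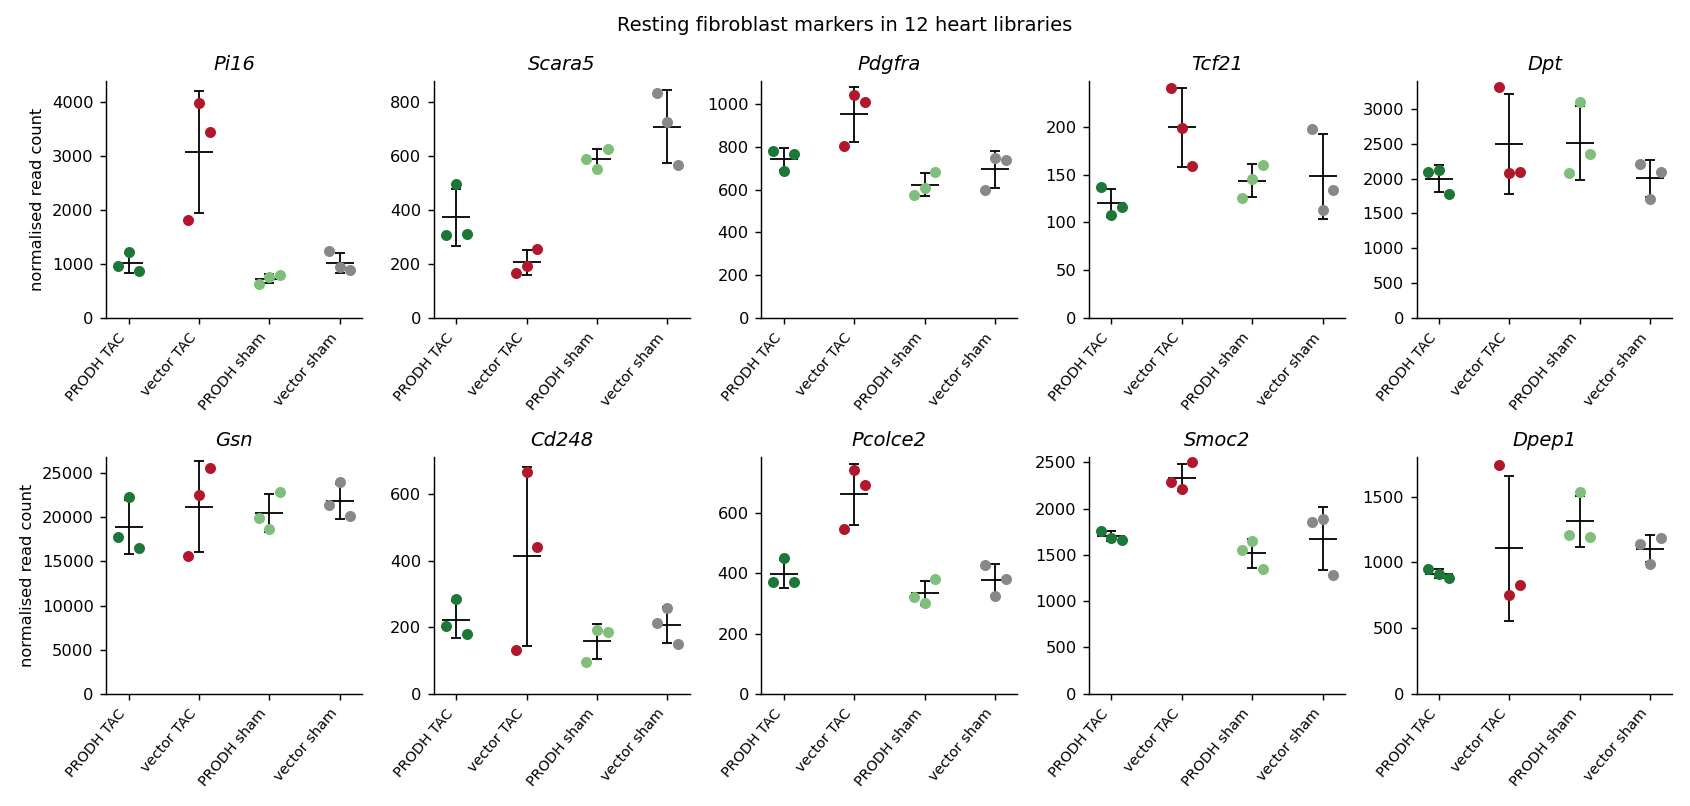
Normalised read count (vertical axes, each from 0) of the 10 markers in PRODH TAC, vector TAC, PRODH sham and vector sham hearts; points are libraries, replicates 1 to 3 from left to right, and bars are mean ± SD (n = 3). Pi16, Pcolce2, Smoc2 and Pdgfra stand highest and Scara5 lowest in all 3 vector TAC hearts, and Cd248, Dpep1 and Pi16 vary most within the vector TAC group.

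After TAC in vector mice the markers did not move one way. Pi16, Pcolce2 and Smoc2 rose and Scara5 fell, while Pdgfra, Tcf21, Dpt, Gsn, Cd248 and Dpep1 did not pass the test. That is 4 of the 10, with 3 higher and 1 lower, against 7.77% of 21173 genes tested by limma (3.72% higher and 4.05% lower). The median log2 difference of the 10 was 0.45, against 0.018 for all genes tested, and 7 of the 10 were positive. At an unadjusted p under 0.05 the number was 5 of 10, against 19.7% of all genes. The groups did not overlap for 5 of the 10, against 20.2% of all genes.

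Of the genes for secreted proteins, Pi16 had 1813, 3976 and 3453 normalised reads in vector TAC replicates 1, 2 and 3, against 1236, 939 and 890.0 in vector sham replicates 1, 2 and 3. Every vector TAC heart was above every vector sham heart, with replicate 1 well below the other 2 TAC hearts. The log2 difference was 1.53 ± 0.24 (SE; limma adjusted p = 0.00098). Pcolce2 had 549, 745 and 695 normalised reads in vector TAC hearts, against 429, 324 and 382.5 in vector sham hearts. Again the groups were apart, and the log2 difference was 0.8 ± 0.15 (limma adjusted p = 0.0041). Both calls held under all 26 alternatives run, with log2 differences of 1.31 to 1.87 for Pi16 and 0.7 to 0.95 for Pcolce2.

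Smoc2 had 2294, 2211 and 2501 normalised reads in vector TAC hearts, against 1856, 1886 and 1282 in vector sham hearts. The lowest vector TAC heart was above the highest vector sham heart, and vector sham replicate 3 was low. Its log2 difference of 0.5 ± 0.15 lay just inside the threshold (limma adjusted p = 0.048). The call held in 11 of 26 alternatives and was lost without any 1 of 9 libraries, among them vector sham replicate 3 (0.32, limma adjusted p = 0.2), vector TAC replicate 2 (0.54, limma adjusted p = 0.099) and vector TAC replicate 3 (0.45, limma adjusted p = 0.15). The others were the 3 PRODH TAC and the 3 PRODH sham libraries, which enter only the shared spread (0.5 in each, limma adjusted p = 0.056 to 0.074).

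Dpt and Gsn, the markers with the highest levels per kilobase in vector sham hearts, gave no call. Dpt had 3317, 2078 and 2092 normalised reads in vector TAC hearts, against 2208, 1700 and 2096 in vector sham hearts. Vector TAC replicates 2 and 3 lay within the vector sham range and replicate 1 lay above it. The 95% interval of its log2 difference ran from -0.11 to 0.7. Gsn had 15576 to 25527 normalised reads in vector TAC hearts and 20102 to 23950 in vector sham hearts, with an interval of -0.54 to 0.41.

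Among the membrane proteins Scara5, which takes up ferritin-bound iron, had the largest difference of the 10 and the only fall. It had 167, 194 and 256 normalised reads in vector TAC replicates 1, 2 and 3, against 833, 723 and 564 in vector sham replicates 1, 2 and 3. The highest vector TAC heart was below the lowest vector sham heart by a wide margin. The log2 difference was -1.78 ± 0.2 (SE; limma adjusted p = 9.1e-05), a mean in vector TAC hearts of 0.291 times that of vector sham hearts. This call held under all 26 alternatives, with log2 differences of -1.95 to -1.58.

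Pdgfra, the receptor for platelet-derived growth factors that defines these fibroblasts, had 805, 1042 and 1011 normalised reads in vector TAC hearts, against 596.5, 748 and 738 in vector sham hearts. The groups did not overlap, and the log2 difference of 0.45 ± 0.13 was just outside the threshold (limma adjusted p = 0.051). It passed in 8 of 26 alternatives, among them DESeq2 on the recovered reads (0.46, adjusted p = 0.017) and the fit without vector TAC replicate 1 (0.57, limma adjusted p = 0.0034). Tcf21, a basic helix-loop-helix factor needed for cardiac fibroblasts to form, had 241, 198.5 and 159 normalised reads in vector TAC hearts, against 197.5, 113 and 133.5 in vector sham hearts. These ranges overlapped, and the log2 difference was 0.45 ± 0.21 (limma adjusted p = 0.26).

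Cd248 and Dpep1 depended on vector TAC replicate 1. Cd248 had 132, 667.5 and 442 normalised reads in vector TAC replicates 1, 2 and 3, against 212, 257 and 149 in vector sham hearts. Replicates 2 and 3 were above every vector sham heart and replicate 1 was below them all. Its log2 difference was 0.75 ± 0.44 (limma adjusted p = 0.39), and 1.43 without vector TAC replicate 1 (limma adjusted p = 0.0022). Dpep1 showed the opposite arrangement, with 1744, 751.5 and 824 normalised reads in vector TAC replicates 1, 2 and 3, against 1142.5, 988 and 1184 in vector sham hearts. Its log2 difference was -0.1 ± 0.23 (limma adjusted p = 0.87) and became -0.48 without that library (limma adjusted p = 0.012). Without vector TAC replicate 1, 7 of the 10 markers passed, 5 higher and 2 lower, against 16.6% of 20834 genes (7.8% higher and 8.78% lower). The library with the high Dpep1 and low Cd248 is the one with 894 normalised reads over the mesothelial list. In other lists it differed too. Activated fibroblast genes summed to 27288 normalised reads in it, against 123264 and 87168 in vector TAC replicates 2 and 3. Ventricular myocyte markers summed to 651277, against 512973 and 514896. The share of mesothelial cells, or of a weaker response to TAC, in either value was not tested.

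**Figure D2:**
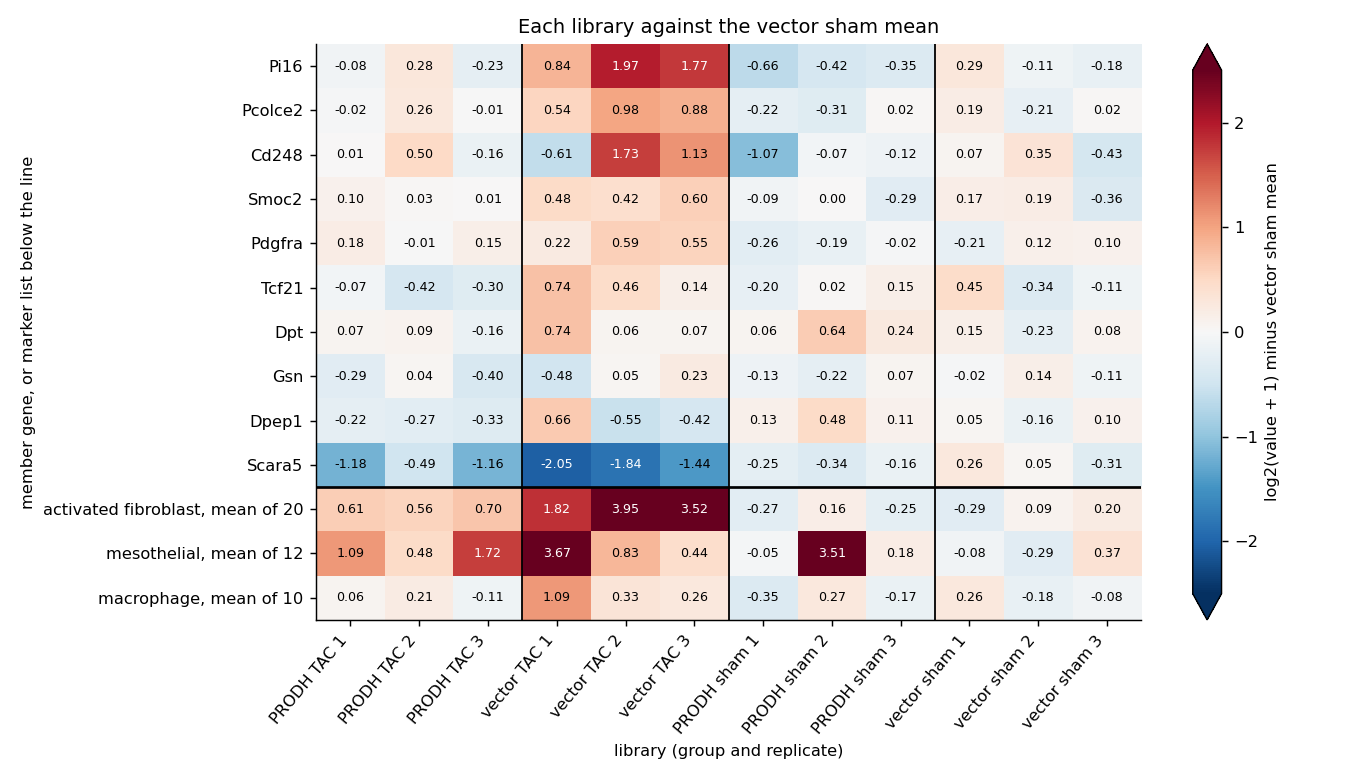
Difference of each library from the mean of the 3 vector sham hearts, in log2(value + 1), for the 10 markers and, below the line, for the mean of 20 activated fibroblast, 12 mesothelial and 10 macrophage genes; columns are libraries, and red is higher and blue lower. Vector TAC replicate 1 has Pi16 at 0.84, against 1.97 and 1.77 in replicates 2 and 3, and activated fibroblast genes at 1.82, against 3.95 and 3.52, while Scara5 at -2.05 is its lowest value.

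With PRODH in TAC hearts Pi16 and Pcolce2 fell, and Scara5 rose, relative to vector TAC hearts. Smoc2, Tcf21, Pdgfra, Dpt, Gsn, Cd248 and Dpep1 did not pass the test. The vector TAC libraries serve in this comparison and in the one above, so the signs in both are not independent, and each value is given for itself. The 3 genes of 10 compare with 3.92% of 21173 genes called by limma (2.12% higher and 1.8% lower). The median log2 difference of the 10 was -0.4, against -0.005 for all genes, and 1 of the 10 was positive. At an unadjusted p under 0.05 the number was 6 of 10, against 16.5% of all genes, and 6 of 10 had groups that did not overlap, against 20.6%.

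Pi16 had 955, 1229.8 and 864 normalised reads in PRODH TAC replicates 1, 2 and 3, against 1813, 3976 and 3453 in vector TAC replicates 1, 2 and 3. The highest PRODH TAC heart was below the lowest vector TAC heart, which was replicate 1. Its log2 difference was -1.54 ± 0.24 (SE; limma adjusted p = 0.0026), and all 26 alternatives kept the call with -1.88 to -1.32. Pcolce2 had 370.3, 451 and 373 normalised reads in PRODH TAC hearts, against 549, 745 and 695 in vector TAC hearts. These groups were apart, with a log2 difference of -0.73 ± 0.15 (limma adjusted p = 0.016). That call held in 21 of 26 alternatives and was lost without vector TAC replicate 2 (-0.64, limma adjusted p = 0.094), vector TAC replicate 3 (-0.69, limma adjusted p = 0.059), PRODH TAC replicate 1 (-0.68, limma adjusted p = 0.077) or PRODH TAC replicate 3 (-0.68, limma adjusted p = 0.088).

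Scara5 had 308, 495 and 312 normalised reads in PRODH TAC replicates 1, 2 and 3, against 167, 194 and 256 in vector TAC hearts. All PRODH TAC hearts were above all vector TAC hearts, and PRODH TAC replicate 2 was well above the other 2. The log2 difference was 0.83 ± 0.2 (SE; limma adjusted p = 0.031). It held in 20 of 26 alternatives. Without PRODH TAC replicate 2 it was 0.61 (limma adjusted p = 0.15), without vector TAC replicate 2 it was 0.8 (limma adjusted p = 0.12), and without PRODH TAC replicates 1 and 3, each left out singly, it was 0.95 and 0.94 (limma adjusted p = 0.052 and 0.064).

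Of the others, Smoc2, Pdgfra and Tcf21 did not overlap between PRODH TAC and vector TAC hearts and still missed the threshold. Tcf21 had 137, 108 and 116 normalised reads in PRODH TAC hearts, against 241, 198.5 and 159 in vector TAC hearts, with a log2 difference of -0.71 ± 0.21 (limma adjusted p = 0.079). Smoc2 had 1764, 1682 and 1661 normalised reads in PRODH TAC hearts, against 2294, 2211 and 2501, with -0.45 ± 0.15 (limma adjusted p = 0.1). For Pdgfra the levels were 781, 686 and 767 normalised reads in PRODH TAC hearts, against 805, 1042 and 1011 in vector TAC hearts, and the log2 difference was -0.35 ± 0.13 (limma adjusted p = 0.19). DESeq2 on the recovered reads called 5 of the 10, adding Tcf21 (adjusted p = 0.03) and Smoc2 (adjusted p = 0.036), against 7.13% of all genes.

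Dpt, Gsn, Dpep1 and Cd248 overlapped between the TAC groups. The 95% intervals of their log2 differences were -0.7 to 0.12 for Dpt, -0.62 to 0.32 for Gsn, -0.66 to 0.33 for Dpep1 and -1.58 to 0.31 for Cd248. PRODH TAC hearts were tightly grouped for Dpep1, at 948, 914 and 878 normalised reads, while vector TAC hearts ran from 751.5 to 1743.6. Without vector TAC replicate 1 the log2 difference of Cd248 became -1.31 (limma adjusted p = 0.0059) and that of Dpep1 turned to 0.21 (limma adjusted p = 0.32). In that fit 6 of the 10 passed, 1 higher and 5 lower, against 13.2% of all genes (7.02% higher and 6.2% lower). Pdgfra (-0.46, limma adjusted p = 0.018) and Smoc2 (-0.47, limma adjusted p = 0.046) were also among the 6.

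**Figure D3:**
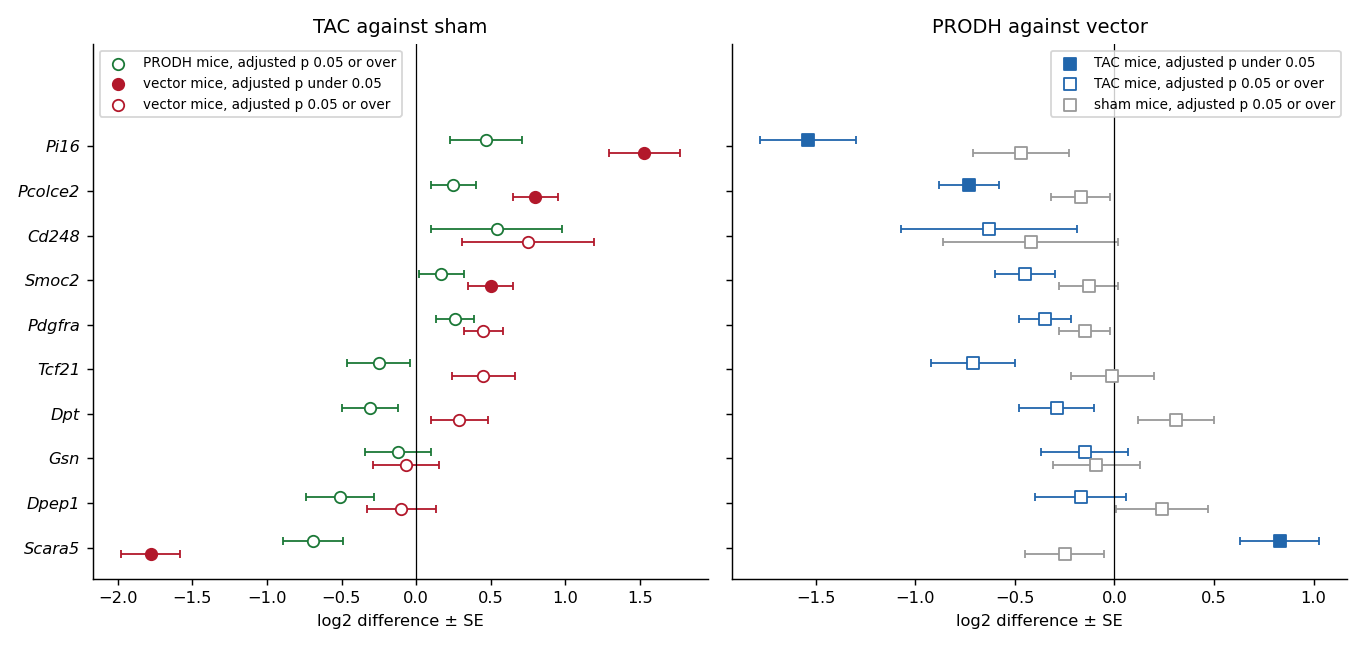
Log2 differences of the 10 markers (horizontal axes, ± SE) for TAC against sham in PRODH and vector mice (left) and for PRODH against vector in TAC and sham mice (right); filled symbols have a limma adjusted p under 0.05. Pi16 stands at 1.53 and Scara5 at -1.78 after TAC in vector mice, against 0.47 and -0.69 in PRODH mice, where no marker passed. The difference between both responses did not pass for Pi16 or Scara5 (limma adjusted p = 0.31 and 0.2).

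In sham hearts no marker differed with PRODH by the test: limma called 0 of the 10 and 0.0% of all genes, edgeR and DESeq2 also called 0 of the 10, and 0 of the 10 had an unadjusted p under 0.05, against 4.11% of all genes. Prodh itself was not called either, although its groups did not overlap (1.26 ± 0.24, limma adjusted p = 0.62). The lack of calls therefore does not show equal levels. Pi16 had 638, 757 and 795 normalised reads in PRODH sham hearts, against 1236, 939 and 890.0 in vector sham hearts. These groups did not overlap, and the log2 difference of -0.47 ± 0.24 had a 95% interval of -0.98 to 0.03. Dpep1 had 1209.5, 1535 and 1192.5 normalised reads in PRODH sham replicates 1, 2 and 3, against 1142.5, 988 and 1184 in vector sham hearts. These 2 genes were the ones without overlap, against 11.2% of all genes. PRODH sham replicate 2, with 776 normalised reads over the mesothelial list, held the highest Dpep1 and, at 3100.5, the highest Dpt of the sham hearts. Scara5 had 586, 551 and 625 normalised reads in PRODH sham hearts, against 833, 723 and 564 in vector sham hearts, with an interval of -0.68 to 0.18.

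TAC against sham in PRODH mice gave 0 calls among the 10 and 0.0236% of all genes by limma with all 12 libraries sharing 1 estimate of spread. At an unadjusted p under 0.05 the number was 2 of 10, against 8.58% of all genes, and edgeR and DESeq2 each called 0 of the 10. Scara5 had 308, 495 and 312 normalised reads in PRODH TAC hearts, against 586, 551 and 625 in PRODH sham hearts. The groups were apart, as were those of Pi16, Pdgfra, Smoc2 and Dpep1, which makes 5 of 10, against 21.8% of all genes. The log2 difference of Scara5 was -0.69 ± 0.2 (limma adjusted p = 0.32), that of Dpep1 -0.51 ± 0.23 (limma adjusted p = 0.57) and that of Pi16 0.47 ± 0.24 (limma adjusted p = 0.6). With a spread taken from the 6 PRODH libraries alone, these 3 genes passed, at limma adjusted p = 0.021, 0.011 and 0.048, against 5.35% of 19129 genes. Without vector TAC replicate 1, Dpep1 alone passed (limma adjusted p = 0.03), against 1.42% of genes.

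Whether the response to TAC differed with PRODH was tested directly as the difference between both responses, PRODH minus vector. By limma 0 of the 10 passed, against 0.104% of all genes, and 5 of 10 had an unadjusted p under 0.05, against 8.6% of all genes. Scara5 had 1.09 ± 0.28 (limma adjusted p = 0.2) and Pi16 -1.06 ± 0.33 (limma adjusted p = 0.31) on the log2 scale. Tcf21 had -0.7 ± 0.3, Dpt -0.6 ± 0.27 and Pcolce2 -0.55 ± 0.22, with limma adjusted p = 0.54, 0.56 and 0.48. DESeq2 called Scara5 (1.11, adjusted p = 0.039) and no other marker, against 0.973% of all genes, and edgeR called none of the 10. In the fit without vector TAC replicate 1, Pi16 alone passed (-1.41, limma adjusted p = 0.0017), against 1.98% of genes.

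PRODH TAC hearts were also set beside vector sham hearts, with libraries that the other comparisons use too. Pi16 had 955, 1229.8 and 864 normalised reads in PRODH TAC hearts and 1236, 939 and 890.0 in vector sham hearts. These groups overlapped, with a log2 difference of -0.01 ± 0.24 (SE). Scara5 remained apart, with 308, 495 and 312 normalised reads in PRODH TAC hearts, against 833, 723 and 564 in vector sham hearts. Its log2 difference was -0.94 ± 0.2 (limma adjusted p = 0.15). By limma 0 of the 10 passed, against 0.0897% of all genes, with 1 of 10 at an unadjusted p under 0.05, against 6.13% of all genes. Dpep1 was also apart, at 948, 914 and 878 normalised reads in PRODH TAC hearts, against 1142.5, 988 and 1184 in vector sham hearts, which makes 2 of 10 without overlap, against 12.5% of all genes. Scara5 passed by DESeq2 (-0.93, adjusted p = 0.011), and without vector TAC replicate 1 (-0.94, limma adjusted p = 0.025), against 0.496% and 0.422% of genes. EdgeR called none of the 10.

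Ratios between markers, taken within a library, do not depend on how the libraries were scaled to each other. Pi16 over Scara5, per kilobase of exon, was 2.38 to 2.97 in PRODH TAC hearts, 10.4 to 19.6 in vector TAC hearts, 1.04 to 1.32 in PRODH sham hearts and 1.24 to 1.51 in vector sham hearts. The TAC groups were apart from each other and from both sham groups, which overlapped. Pi16 had the largest rise and Scara5 the only called fall of the 10 after TAC in vector mice. Their ratio joins differences described above and is no separate support for them. Scara5 over Pdgfra was 0.648 to 1.19 in PRODH TAC hearts, 0.306 to 0.417 in vector TAC hearts, 1.49 to 1.67 in PRODH sham hearts and 1.26 to 2.3 in vector sham hearts. Vector TAC hearts were lowest, PRODH TAC hearts lay between them and the sham hearts, and the sham groups again overlapped. Pi16 over Pdgfra separated only vector TAC hearts, at 3.55 to 6.01, from 1.77 to 2.82 in PRODH TAC, 1.74 to 1.96 in PRODH sham and 1.9 to 3.26 in vector sham hearts. Smoc2 over Pdgfra overlapped between all 4 groups, at 3.12 to 3.53, 3.06 to 4.11, 2.86 to 3.92 and 2.51 to 4.49 in PRODH TAC, vector TAC, PRODH sham and vector sham hearts.

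**Figure D4:**
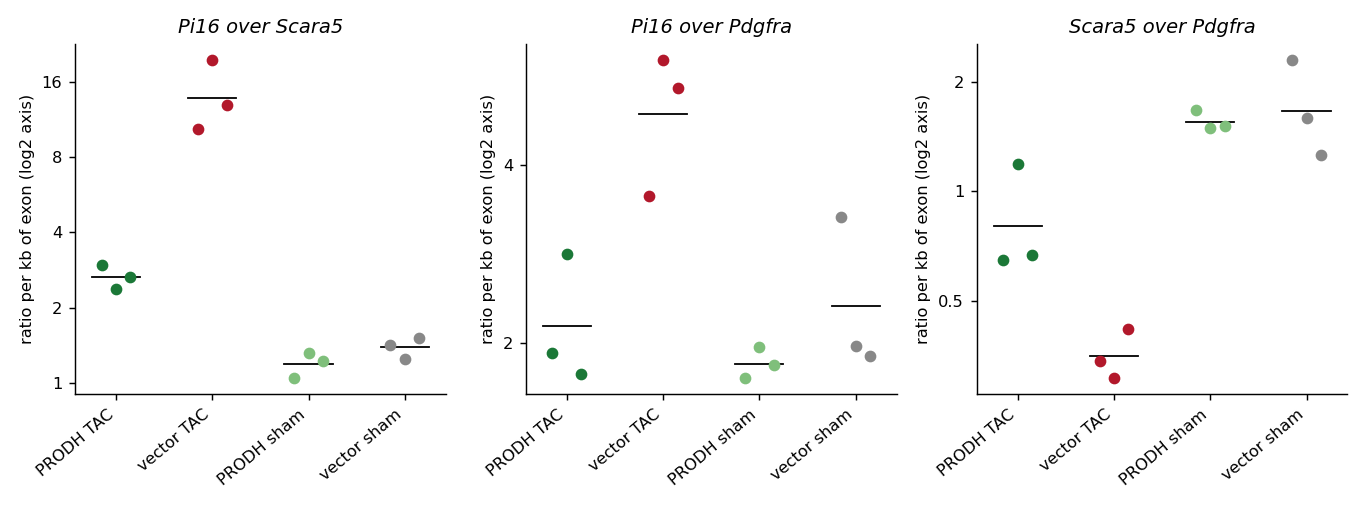
Ratios of Pi16 to Scara5, Pi16 to Pdgfra and Scara5 to Pdgfra per kilobase of exon (log2 axes) in PRODH TAC, vector TAC, PRODH sham and vector sham hearts; points are libraries and lines are geometric means (n = 3). Pi16 over Scara5 is at 10.4 to 19.6 in vector TAC hearts, 2.38 to 2.97 in PRODH TAC hearts and at most 1.51 in sham hearts. These are the markers with the largest rise and the only called fall after TAC in vector mice.

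Dpep1 over Pdgfra was 4.61 to 5.37 in PRODH TAC hearts, 2.91, 3.29 and 8.73 in vector TAC hearts, 7.05 to 10.2 in PRODH sham hearts and 5.33 to 7.72 in vector sham hearts. The value of 8.73 came from vector TAC replicate 1, and the other 2 vector TAC hearts were below every other heart. Gsn over Pdgfra was 68.4 to 103.0 in PRODH TAC hearts, 61.4 to 80.2 in vector TAC hearts, 97.4 to 110.0 in PRODH sham hearts and 86.5 to 114.0 in vector sham hearts. All vector TAC hearts were below the lowest sham heart, and PRODH TAC hearts overlapped both with them and with the sham hearts. Tcf21 over Pdgfra overlapped between vector TAC hearts, at 0.671 to 1.28, and PRODH TAC hearts, at 0.647 to 0.748. It was 0.926 to 1.02 in PRODH sham hearts, all above PRODH TAC hearts, and 0.646 to 1.41 in vector sham hearts.

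Spread within a group differed between the markers. The coefficient of variation over 3 libraries ran from 3.2% for Smoc2 in PRODH TAC hearts to 65.0% for Cd248 in vector TAC hearts. Vector TAC was the most variable group for 7 of the 10, among them Pi16 (36.6%), Dpt (28.5%), Gsn (24.1%), Pcolce2 (15.4%) and Pdgfra (13.5%). Scara5 varied most in PRODH TAC hearts (28.8%), and Tcf21 and Smoc2 in vector sham hearts (29.7% and 20.3%).

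**Figure D5:**
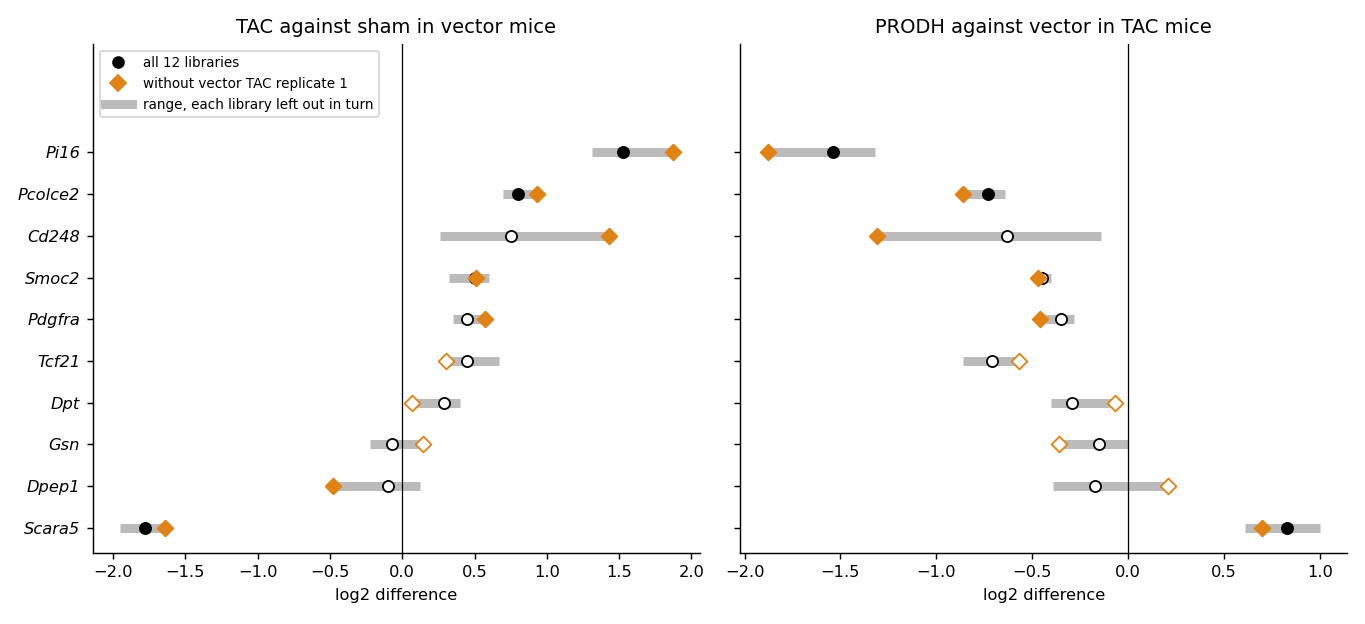
Log2 differences for TAC against sham in vector mice (left) and PRODH against vector in TAC mice (right) with all 12 libraries (circles) and without vector TAC replicate 1 (diamonds), with grey bars for the range over 12 fits that each leave out 1 library; filled symbols have a limma adjusted p under 0.05. Scara5 stays between -1.95 and -1.64 on the left, while Cd248 runs from 0.26 to 1.43 and Dpep1 from -0.48 to 0.12.

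Other genes of unstressed heart fibroblasts were measured beside the 10 markers. Of 26 such genes 12 rose and 1 fell after TAC in vector mice, where 7.77% of all genes were called. Their median log2 difference was 0.49, against 0.018 for all genes. Apod, a lipid carrier of the lipocalin family, rose by 2.14 ± 0.24 (limma adjusted p = 8.4e-05) and Mgp, an inhibitor of calcification, by 1.69 ± 0.22 (limma adjusted p = 0.00024). The collagen-binding proteoglycans Dcn and Lum rose by 0.85 ± 0.17 and 0.9 ± 0.17 (limma adjusted p = 0.0053 and 0.0034). The 1 gene that fell was Penk, the precursor of enkephalin peptides, with 13.3 ± 8.3 normalised reads in vector TAC hearts and 78.6 ± 13.8 in vector sham hearts (log2 difference -2.63 ± 0.34, limma adjusted p = 0.00026).

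With PRODH in TAC hearts, where 3.92% of all genes were called, 1 of these 26 genes rose and 11 fell. Their median was -0.5, against -0.005 for all genes. The vector TAC libraries serve in both comparisons, here and for each list below, so the signs are not independent. The direct test of the difference between both TAC responses called 0 of the 26, against 0.104% of all genes. At an unadjusted p under 0.05 by limma that test gave 16 of the 26, against 8.6% of all genes. Penk was the gene that rose, at 52.8 ± 2.8 normalised reads in PRODH TAC hearts and 13.3 ± 8.3 in vector TAC hearts (2.08 ± 0.34, limma adjusted p = 0.0038). Mgp fell by 1.65 ± 0.22 (limma adjusted p = 0.0011), and Dcn fell by 1.05 ± 0.17 (limma adjusted p = 0.0034). The counts without vector TAC replicate 1 were 16 up and 2 down after TAC in vector mice, against 16.6% of all genes called. With PRODH in TAC hearts they were 1 up and 18 down, against 13.2% of all genes. With any 1 library left out, 11 to 18 of the 26 passed after TAC in vector mice, against 821 to 3455 of all genes. With PRODH in TAC hearts 9 to 19 passed, against 247 to 2754 of all genes.

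Genes of a mixed list, named adventitial and universal fibroblast genes, went both ways. Of 19 such genes 4 rose and 2 fell after TAC in vector mice, against 7.77% of all genes called, with a median of 0.24. Mfap5, a microfibril protein, rose by 2.52 ± 0.24 (limma adjusted p = 3.2e-05). Wif1, a secreted Wnt inhibitor, fell by 1.58 ± 0.41 (limma adjusted p = 0.027). Its levels were low, at 7.5 ± 2.0 normalised reads in vector TAC hearts and 25.8 ± 12.4 in vector sham hearts. Clec3b, which encodes tetranectin, fell by 0.98 ± 0.27 (limma adjusted p = 0.039), and its groups overlapped. Wif1 lost its call without vector sham replicate 2 (-1.23, limma adjusted p = 0.14), vector sham replicate 3 (-1.67, limma adjusted p = 0.054) or vector TAC replicate 2 (-1.58, limma adjusted p = 0.08), and Clec3b in 10 of 12 fits that each left out 1 library, with -0.69 without vector TAC replicate 2 (limma adjusted p = 0.19) as the smallest. Dpp4 and Ly6a, surface markers on the same list, gave -0.28 ± 0.57 and 0.24 ± 0.23. With PRODH in TAC hearts, where 3.92% of all genes were called, 1 of the 19 rose and 1 fell. The chemokine scavenger receptor Ackr3 rose (0.57, limma adjusted p = 0.024) and Mfap5 fell (-2.14 ± 0.24, limma adjusted p = 0.00041). The rise of Ackr3 was lost without vector TAC replicate 2 or any 1 PRODH TAC library, which left 1 of the 19 called. The direct test of the difference between both TAC responses called 1 of the 19, against 0.104% of all genes. It was Mfap5 (-1.97 ± 0.34, limma adjusted p = 0.046), and 0 to 3 passed when 1 library was left out. Without vector TAC replicate 1 the counts became 9 up and 2 down after TAC in vector mice, against 16.6% of all genes called. With PRODH in TAC hearts they became 2 up and 7 down, against 13.2% of all genes. After TAC in vector mice they were 1 up and 0 down without vector TAC replicate 2, 2 up and 0 down without vector sham replicate 3, and between 2 and 4 up with 0 to 2 down without any other library.

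Activated fibroblast genes were measured beside the resting markers. Of 20 such genes 16 rose and 0 fell after TAC in vector mice, where 7.77% of all genes were called, and their median was 2.93. With PRODH in TAC hearts, where 3.92% of all genes were called, 12 of the 20 fell and 0 rose, with a median of -1.95. The direct test of the difference between both TAC responses called 2 of the 20, both lower, against 0.104% of all genes. At an unadjusted p under 0.05 by limma that test gave 14 of the 20, against 8.6% of all genes. With 1 library left out, 13 to 18 rose after TAC in vector mice and 8 to 17 fell with PRODH in TAC hearts. The highest counts, 18 and 17, came without vector TAC replicate 1, where 16.6% and 13.2% of all genes were called. The lowest with PRODH, 8, came without vector TAC replicate 2. Postn, which encodes the matrix protein periostin, had 1427.5, 1349.5 and 1335 normalised reads in PRODH TAC hearts and 4752, 26238 and 17799 in vector TAC hearts, against 544, 503 and 477 in PRODH sham hearts and 896, 712 and 672.5 in vector sham hearts. As with Pi16, vector TAC replicate 1 was the lowest of its group. The summed level of the 20 genes was 15202 to 15372 normalised reads in PRODH TAC hearts, 27288, 123264 and 87168 in vector TAC replicates 1, 2 and 3, 9748 to 11797 in PRODH sham hearts and 10332 to 13496 in vector sham hearts.

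Among 7 ligands and receptors of the PDGF system, Pdgfra included, 1 rose after TAC in vector mice, against 7.77% of all genes called. It was the receptor-like Pdgfrl. Its log2 difference was 1.57 ± 0.34 (limma adjusted p = 0.01) and missed the threshold without vector TAC replicate 2 (1.37, limma adjusted p = 0.066) or replicate 3 (1.36, limma adjusted p = 0.056). In PRODH TAC hearts, relative to vector TAC hearts, 1 of the 7 fell, against 3.92% of all genes called. It was again Pdgfrl (-1.9 ± 0.34, limma adjusted p = 0.0065). The ligands Pdgfa and Pdgfc gave 0.13 ± 0.23 and 0.42 ± 0.33 after TAC in vector mice, and the pericyte receptor Pdgfrb gave 0.55 ± 0.25, with limma adjusted p = 0.83, 0.54 and 0.24. In the fit without vector TAC replicate 1, 3 of the 7 rose after TAC in vector mice, against 16.6% of all genes called. In that fit 5 fell with PRODH, against 13.2% of all genes. With all 12 libraries the direct test of the difference between both TAC responses called 0 of the 7, against 0.104% of all genes.

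Close relatives of the markers were followed as 16 genes. Of these 4 rose after TAC in vector mice, Pcolce, Capg, Crispld1 and Crispld2, against 7.77% of all genes called. The median over the 16 was 0.4. Pcolce, the sister of Pcolce2 that also enhances procollagen processing, rose by 1.22 ± 0.19 (limma adjusted p = 0.00094). Relative to vector TAC hearts 4 of the 16 fell in PRODH TAC hearts, against 3.92% of all genes called. The median over the 16 was -0.54, and Pcolce fell by 1.25 ± 0.19 (limma adjusted p = 0.0023). Smoc1, the sister of Smoc2, gave -1.19 ± 0.72 after TAC in vector mice (limma adjusted p = 0.41). Leaving out vector TAC replicate 1 gave 7 of the 16 higher after TAC in vector mice, against 16.6% of all genes called. It gave 1 higher and 8 lower with PRODH, against 13.2% of all genes. Leaving out vector TAC replicate 2, PRODH TAC replicate 1 or PRODH TAC replicate 3 gave 2 lower with PRODH. Of 17 transcription factors of fibroblasts, Tcf21 included, 1 rose after TAC in vector mice, the Notch target Heyl (0.92 ± 0.26, limma adjusted p = 0.039), which is 5.9% of the list, against 7.77% of all genes. None of the 17 passed with PRODH in TAC hearts by limma, where 3 had an unadjusted p under 0.05, edgeR called 1 and DESeq2 called 2. Heyl was lost in 10 of 12 fits that each left out 1 library, for example vector TAC replicate 2 (0.68, limma adjusted p = 0.19). Without vector TAC replicate 1, 4 of the 17 were up after TAC in vector mice, against 16.6% of all genes called. With PRODH 4 were down, against 13.2% of all genes. With all 12 libraries the difference between both TAC responses was called for 0 of the 16 relatives and 0 of the 17 factors. The share of all genes called there was 0.104%.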

How the data were processed

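Total RNA of mouse hearts was taken up in TRIzol, freed of DNA and turned into libraries with the SMARTER kit, per the labels' protocols. Aligner, counter, strandedness, build and annotation: not given in the sources used here. Deposited values are a normalised signal, in which every value (100%) is a whole multiple, within 0.01, of what 1 read is worth in its library. Reads were recovered from these steps. The main test was limma 3.58.1 (R 4.3.3, trended prior) on log2(value + 1) for genes with at least 1 normalised read in at least 3 libraries. All 12 libraries entered, with 1 mean per group, and p-values were Benjamini-Hochberg adjusted over all genes and called under 0.05. The design foresaw raw counts or normalised values, and the form for the second was used. Exact permutation of 3 against 3 libraries cannot go below p = 0.1. Named genes were the 10 markers, up to 4 called genes with the smallest p per list and comparison, and genes named in advance whatever their values, of which a part is described. Markers and all 15 lists were chosen with earlier results of these data known. Alternatives were edgeR 4.0.16, DESeq2 1.42.0 and voom on the recovered reads, other scalings and filters, a pseudocount of 0.1, fits of the compared groups alone, a replicate block, and left-out libraries. A mesothelial covariate was added after seeing the data. Vector TAC replicate 1 and PRODH sham replicate 2, left out together in 1 fit, were picked by their mesothelial marker levels in these data. The separate account without vector TAC replicate 1 rests on its levels too. Exons of Pi16 and Pdgfra overlap other genes that average under 1 normalised read or are not listed.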

Additional observations from a re-analysis of the deposited data

How the results depend on the processing

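The call counts of the 10 markers changed with the libraries used. After TAC in vector mice 4 passed, with 3 to 7 when 1 library was left out and 7 without both vector TAC replicate 1 and PRODH sham replicate 2. With PRODH in TAC hearts 3 passed, with 1 to 6 when 1 library was left out, 6 without both of those libraries, 1 with only the groups compared and 5 by DESeq2. TAC against sham in PRODH mice gave 0, with 0 to 1 when 1 library was left out and 3 with only the groups compared. The difference between both TAC responses gave 0, with 0 to 1 when 1 library was left out, and 1 each by DESeq2 and without both libraries. PRODH TAC against vector sham gave 0, with 0 to 1, 1 and 1 under the same settings. PRODH against vector in sham hearts gave 0 throughout. No called value of the markers changed sign. Over all alternatives 32 values passed newly, 26 no longer passed and the rest kept their side of the threshold. Values that were not called could change sign, as Gsn did after TAC in vector mice (-0.07, with a range of -0.22 to 0.17). The cause was not tested. Nothing in the labels says that replicate numbers pair the samples. Of 18 same-numbered pairs 2 correlated above 0.1 in their deviations (from -0.049 to 0.14), and differently numbered pairs ran from -0.206 to 0.142. With so few libraries per group these values cannot exclude pairing. With the replicate number as a block, 5 markers passed after TAC in vector mice, with Pdgfra added (0.45, limma adjusted p = 0.036), and 3 with PRODH in TAC hearts. With the mesothelial covariate the counts were 4 and 3. Over all genes the calls after TAC in vector mice ran from 821 to 3455 when 1 library was left out, and those with PRODH in TAC hearts from 247 to 2754. Tcf21 and Cd248 had the fewest reads of the markers, with 98 and 84 in their lowest libraries, and the effect of depth was not tested.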
